A study of Physcomitrium patens with 8 samples.

Results

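The 298 probes described here were lower in the atg5 line of the moss Physcomitrium patens than in wild type (WT) under well-watered culture, and were not lower by the same criterion on abscisic acid or in the dried state. They stand for 298 gene models of 252 loci, out of 38181 gene probes for 38166 models of 32103 loci on the array. The atg5 line is a knockout of autophagy related gene 5, and WT is the line it was set against on every array. Both lines were protonemal colonies, the filamentous stage of the moss, and there were 8 dual-colour arrays with 2 replicates for each of 4 treatments. Hydration stands for colonies after 7 days of culture at 25 °C in continuous light, on medium with ammonium tartrate and glucose. ABA stands for such colonies moved to medium with 50 µM abscisic acid for a further 24 h. Dehydrated colonies were kept over silica gel for 24 h, and rehydrated ones then had 24 h on fresh medium. The labels name 1 knockout line, and leave unsaid if abscisic acid was given ahead of drying.

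Autophagy is the process by which cells enclose their own cytoplasm in membranes and break it down in the vacuole. ATG5 is part of the conjugation machinery that attaches ATG8 to those membranes. Abscisic acid is the plant hormone of water deficit, and moss protonemata treated with it gain tolerance of drying. The array's identifiers, such as Pp1s69_87V6.1, name a scaffold, a locus number and a model version of an older gene set. None of them was found among the 27567 genes of the reference table, so members are given by identifier, with no gene name or role. For the same reason the ATG5 transcript itself was not analysed here, and the labels rest on no check of it.

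Members were chosen by r, the log2 ratio of atg5 over WT in the scanner's processed signals, centred on each array and averaged over the 2 replicates. Each member was marked well above background in both dyes on all 6 Hydration, ABA and Dehydration arrays. Its r was at or below -0.8 in Hydration and above -0.3 both in ABA and in Dehydration. The detection rule alone was met by 10983 probes of 8730 loci, which serve as the background below. The ratios of these 6 arrays are therefore a description of the choice, with no test. No Rehydration ratio was a criterion, and only in Rehydration was atg5 tested against WT. The Rehydration channels entered the choice through the centring alone, which used probes well above background in all 16 channels. Whether the members were lowered only when well watered is not settled by the rule. After rehydration 72 of 296 members were lower in atg5 in the loess fit (24.3%), against 10.9% of background probes. With the processed signals of the rule 67 were lower (22.6%), against 9.46% of all tested probes. None were with median centring in place of loess.

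Between 37.1% and 53.5% of gene probes were well above background in the Hydration, ABA and Dehydration channels. In Rehydration the share was 29.2% and 23.4% in atg5 and 19.3% and 30.6% in WT. No member was saturated in any channel. After rehydration 199 members (66.8%) were well above background in both dyes on both arrays, against 49.9% of the background probes. The precision of every value is limited by the 2 arrays behind it.

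In Hydration the members' median r was -1.12 on replicate 1 and -1.12 on replicate 2, and the replicate mean ran between -3.39 and -0.80. A total of 226 members were at or below the limit of -0.8 on both arrays, which 4.23% of background probes were. One member lay above 0 on 1 of the 2 Hydration arrays. The median r was -0.030 in ABA, with a highest value of 1.99, and 0.0010 in Dehydration, with a highest value of 2.27. Of the members, 156 were below 0 in ABA and 149 in Dehydration. In Rehydration the median r was -0.14, and single members ran between -2.71 and 2.56. These samples are bulk RNA, so fewer cells of a type and less RNA per cell cannot be told apart.

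**Figure D1:**
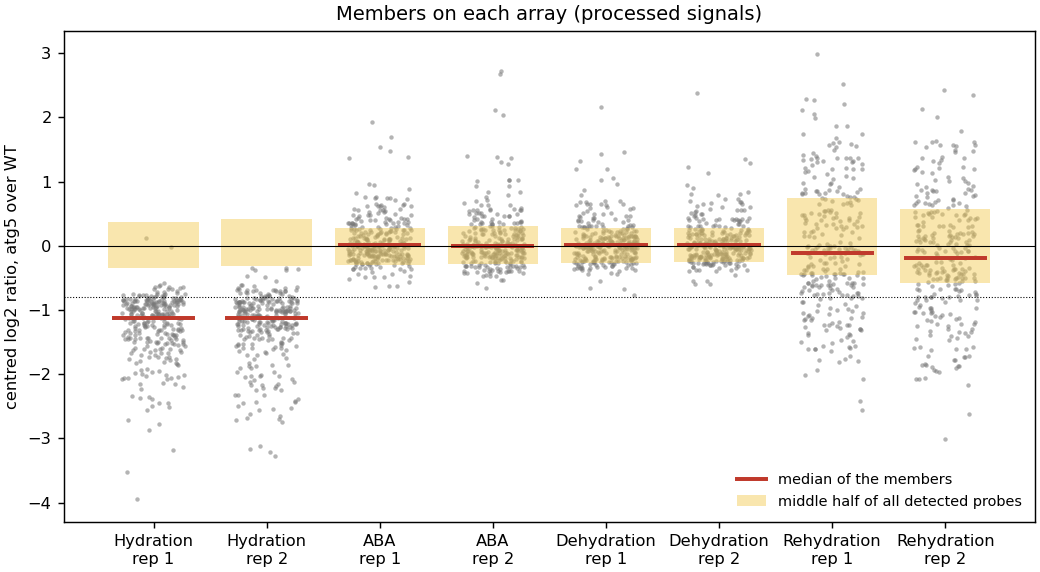
Centred log2 ratio of atg5 over WT in the processed signals (vertical axis) of each of the 298 members (grey points) on the 8 arrays, with the members' median (red line), the middle 50% of all background probes (yellow band) and the Hydration limit of -0.8 (dotted line). The Hydration points lie below the band by choice, the ABA and Dehydration points lie around 0, and the Rehydration points spread from -3.01 to 2.99 over both arrays.

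The limits cut through a continuous range of values. Just inside the Hydration limit were Pp1s29_123V6.1 and Pp1s83_240V6.1, each at an r of -0.80. Just outside it were Pp1s231_7V6.2 and Pp1s7_225V6.1, which also round to -0.80. At the ABA limit Pp1s142_79V6.1 and Pp1s50_118V6.3 were inside at -0.30, and Pp1s235_61V6.1 and Pp1s142_57V6.1 were outside at -0.30. At the Dehydration limit Pp1s397_21V6.1 and Pp1s65_300V6.1 were inside at -0.29, and Pp1s247_19V6.1 at -0.31 and Pp1s15_388V6.1 at -0.30 were outside. Pp1s83_240V6.1 shows how far the replicates of a member near the limit could part, with -1.24 and -0.36 on its Hydration arrays.

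The lowest mean r in Hydration belonged to Pp1s69_87V6.1, at -3.39. Levels below are log2 signals after background correction and normalization, in arbitrary units of brightness that compare samples and not probes. In Hydration this member had log2 levels of 6.33 and 6.81 in atg5, against 8.72 and 8.85 in WT. In ABA it had 10.60 and 10.51 in atg5, against 10.76 and 10.77 in WT. In Dehydration the levels were 11.60 and 11.69 in atg5 and 11.67 and 11.78 in WT. Both lines stood higher in these 2 treatments than in Hydration, and the gap between them was large only in Hydration. In Rehydration the levels were 10.55 and 10.62 in atg5 and 10.62 and 10.90 in WT, with a fitted log2 ratio of -0.17 ± 0.105 (SE, limma adjusted p = 0.367).

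The next 7 by mean r in Hydration, between -3.35 and -2.52, were Pp1s152_65V6.1, Pp1s25_159V6.1, Pp1s131_25V6.1, Pp1s517_11V6.2, Pp1s32_270V6.1, Pp1s174_98V6.1 and Pp1s37_306V6.1. Pp1s174_98V6.1 had log2 levels of 8.34 and 8.13 in atg5 and 10.58 and 10.39 in WT in Hydration. In ABA it had 14.15 and 13.70 in atg5 and 14.13 and 13.89 in WT, so the lines overlapped at a much brighter signal. In Rehydration it had 13.44 and 13.35 in atg5 and 14.74 and 14.23 in WT, again with no overlap. Pp1s37_306V6.1 differed from the other 7 of these 8 in that WT hardly moved on ABA. Its levels on ABA were 11.32 and 11.50 in atg5 and 11.25 and 11.32 in WT. In Hydration they were 8.86 and 8.80 in atg5 and 11.27 and 11.27 in WT, so that atg5 on ABA stood at a level WT already held in Hydration. Its Dehydration replicate 1 spot carried an outlier mark and was left out of the fit, as were both Dehydration spots of Pp1s152_65V6.1. Pp1s517_11V6.2 had Hydration levels of 9.30 and 7.22 in atg5 and 11.99 and 9.11 in WT, a spread between arrays as wide as that between lines.

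A ratio near 0 on ABA can come from a rise in atg5, a fall in WT or both. The rule sets a lower bound on the difference of the 2 changes, but not how it divides. It also favours probes that read low in atg5 and high in WT in Hydration, so the counts of levels that follow are a description with no test. On ABA, 151 members were 2-fold or more higher than in Hydration in atg5 (50.7%), against 7.17% of background probes. In WT 77 members were 2-fold or more higher on ABA (25.8%), against 6.06% of background probes. Levels 2-fold or more lower on ABA were found for 3 members in atg5, with a background of 7.25%, and for 23 members in WT, with a background of 6.83%. The members' median change on ABA was 1.03 log2 units in atg5 and 0.19 in WT, where the background medians were -0.031 and -0.053. At the median WT did not fall. That atg5 rose by more than WT did was set by the choice.

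Drying gave much the same picture, under the same limit on the ratio. In Dehydration 177 members were 2-fold or more higher than in Hydration in atg5 (59.4%), against 8.26% of background probes. In WT 90 members were so (30.2%), against 6.35% of background probes. There were 3 members 2-fold or more lower in atg5, against a background of 9%, and 10 in WT, against a background of 8.23%. Leaving out 1 array took the first of these counts to 5 without Hydration replicate 1 or Dehydration replicate 2, and the second to 17 without Dehydration replicate 2. With signals scaled to the 75th percentile the first was 7 (2.35%), against 14.4% of background probes, and the second 19 (6.38%), against 13.1%. The median change was 1.22 log2 units in atg5 and 0.32 in WT. Of the 77 members higher on ABA in WT, 70 were also higher in Dehydration in WT. Background probes were not counted in this way, so the overlap is not shown to be particular to the members. The comparisons on ABA and in Dehydration share their Hydration channels.

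**Figure D2:**
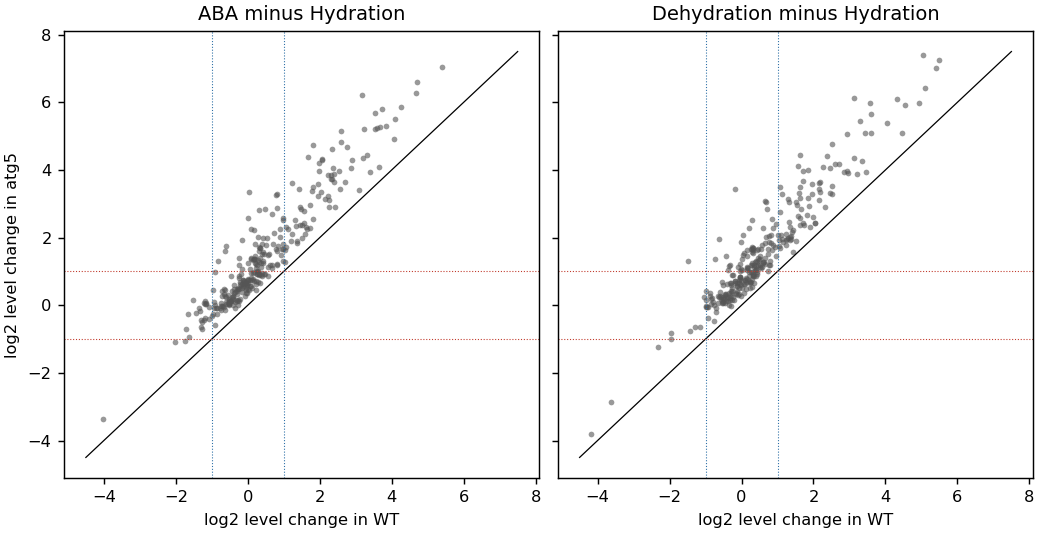
Change in log2 level against Hydration in atg5 (vertical axis) and in WT (horizontal axis) for each of the 298 members, on ABA (left) and in Dehydration (right), with the line of equal change and dotted lines at 2-fold. The points lie above the line because the members were chosen so, and they run along it from falls in both lines to rises of over 5 log2 units in both.

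Sorted by what WT did on ABA, the members formed 3 classes. By the limits, each member's change in r on ABA was larger in atg5 than in WT. A 2-fold rise in WT thus all but sets one in atg5, and a fall in WT goes with a smaller one or none in atg5. The classes are a description of the choice in that respect. In the first class, WT was 2-fold or more higher on ABA, and all 77 members were 2-fold or more higher in atg5 too. The median log2 level of this class was 11.42 in atg5 and 11.08 in WT on ABA, against 7.49 in atg5 and 8.73 in WT in Hydration. In the second class, of 198 members, WT changed by under 2-fold, and atg5 was 2-fold or more higher in 74 and changed by under 2-fold in 124. Its median level was 8.11 in atg5 and 8.11 in WT on ABA, against 7.25 in atg5 and 8.06 in WT in Hydration. In the third class, of 23 members, WT was 2-fold or more lower on ABA, and atg5 was so in 3. There the median level was 7.94 in atg5 and 7.78 in WT on ABA, against 8.34 in atg5 and 9.44 in WT in Hydration, so the lines met at the lower level.

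**Figure D3:**
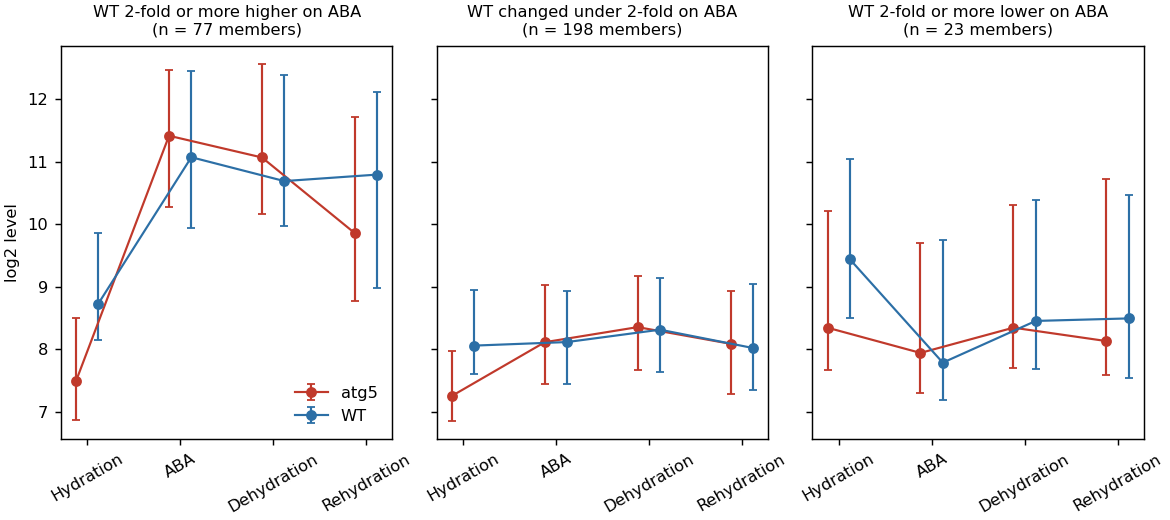
Median log2 level (vertical axis, bars from the first to the third quartile over members) in atg5 (red) and WT (blue) in the 4 treatments, for the 77 members with WT 2-fold or more higher on ABA, the 198 with WT changed by under 2-fold and the 23 with WT 2-fold or more lower. In Hydration atg5 lies below WT in each panel, by choice, and in Rehydration the gap is visible again in the first panel, at 9.86 in atg5 and 10.80 in WT.

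Pp1s149_4V6.1 had the largest WT rise on ABA among the members, at 5.39 log2 units, beside 7.03 in atg5. Its levels on ABA were 16.52 and 16.46 in atg5 and 16.19 and 16.25 in WT, against 9.37 and 9.56 in atg5 and 10.74 and 10.91 in WT in Hydration. In these loess levels the order of the lines on ABA was the opposite of that in Hydration on both arrays, whereas its r in the processed signals was 0.48 and -0.058 on the ABA arrays. Pp1s147_26V6.1 and Pp1s156_7V6.3 followed, each with a WT rise of 4.69 log2 units on ABA. Pp1s147_26V6.1 was also above WT on ABA, at 15.48 and 15.51 in atg5 and 14.62 and 14.88 in WT.

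At the other end, Pp1s82_3V6.2 had a level change on ABA of -3.36 log2 units in atg5 and -4.02 in WT. Its levels on ABA were 10.42 and 10.43 in atg5 and 10.52 and 10.29 in WT, against 14.00 and 13.57 in atg5 and 14.69 and 14.16 in WT in Hydration. Its lines came together at a low level on ABA. In Rehydration it had 11.79 and 12.07 in atg5 and 13.11 and 13.02 in WT. Pp1s1_199V6.1 changed by -1.10 log2 units in atg5 and -2.02 in WT. Pp1s40_127V6.1 had a mean WT change of -1.76 on ABA, but that mean rests on 1 array, since its ABA levels were 11.68 and 7.77 in atg5 and 11.93 and 8.01 in WT. Such gaps of 2-fold or more between the 2 arrays of a treatment, in both lines at once, occurred for 13 members in Hydration, 20 in ABA, 22 in Dehydration and 41 in Rehydration. They leave the ratio within an array in place but move the levels. Counting only members changed 2-fold or more in both replicates, 138 were higher on ABA in atg5 and 71 in WT, and 18 were lower in WT. Background probes were not counted in this way, nor for the gaps between arrays.

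The 3 members chosen for a high WT level in Hydration were Pp1s557_19V6.1, Pp1s82_3V6.2 and Pp1s54_173V6.1. Pp1s557_19V6.1 had 15.35 and 15.60 in atg5 and 14.96 and 12.87 in WT on ABA. In Hydration it had 13.62 and 13.85 in atg5 and 14.66 and 14.39 in WT. Its ABA ratio of 1.54 thus rests largely on WT in replicate 2. Pp1s54_173V6.1 had 12.67 and 12.55 in atg5 and 12.67 and 12.61 in WT on ABA, against 13.33 and 13.31 in atg5 and 14.33 and 14.38 in WT in Hydration.

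After rehydration, atg5 was tested against WT with limma across 19732 probes, with Benjamini-Hochberg adjustment over all of them and calls at an adjusted p under 0.05. Of 296 members with a ratio, 72 were lower in atg5 (24.3%, in 66 loci), where 7.4% of all tested probes and 10.9% of background probes were lower. A further 41 were higher (13.9%, in 32 loci), where 7.07% of all tested probes and 11% of background probes were higher. Among probes well above background in both dyes on both Rehydration arrays, 39 of 197 members were higher (19.8%), against 21.6% of all such probes, so the higher share was no larger than its background at like detection. In the same set 77 members were lower (39.1%), against 25.7% of all such probes. The count of 41 was 11 without Rehydration replicate 2. Over all members with a ratio, 113 were called either way (38.2%), against 14.5% of all tested probes and 21.8% of background probes. An unadjusted p under 0.05 in limma was found for 154 members, and for 3972 of 10976 background probes. Each of the 113 had the same sign on both arrays, as did all 2390 background calls measured on both, so this does not set members apart. Of the members' calls, 23 were 2-fold or more lower and 8 were 2-fold or more higher. Of the 2397 background calls, 152 were 2-fold or more lower and 96 were 2-fold or more higher. The median fitted log2 ratio was -0.040 over members and 0.016 over background probes, and the members' quartiles were -0.36 and 0.17. Members of 1 locus, or near-identical gene copies, can read the same transcripts and are not independent. The p-values measure only the spread between the arrays.

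Probes that were as low in Hydration but missed the ABA or Dehydration limit give the nearest comparison. Of 362 such probes with a ratio, 66 were lower (18.2%) and 26 were higher (7.18%) in atg5 after rehydration. Of background probes 10.9% were lower and 11% were higher. Of 213 probes raised in atg5 in Hydration alone by the mirrored limits, 35 were lower (16.4%) and 13 were higher (6.10%). A share of lower calls above that of the background was thus not particular to the members. The median log2 ratio was -0.052 in the first of these sets and -0.059 in the second, close to that of the members. Differences between these sets were not tested.

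**Figure D4:**
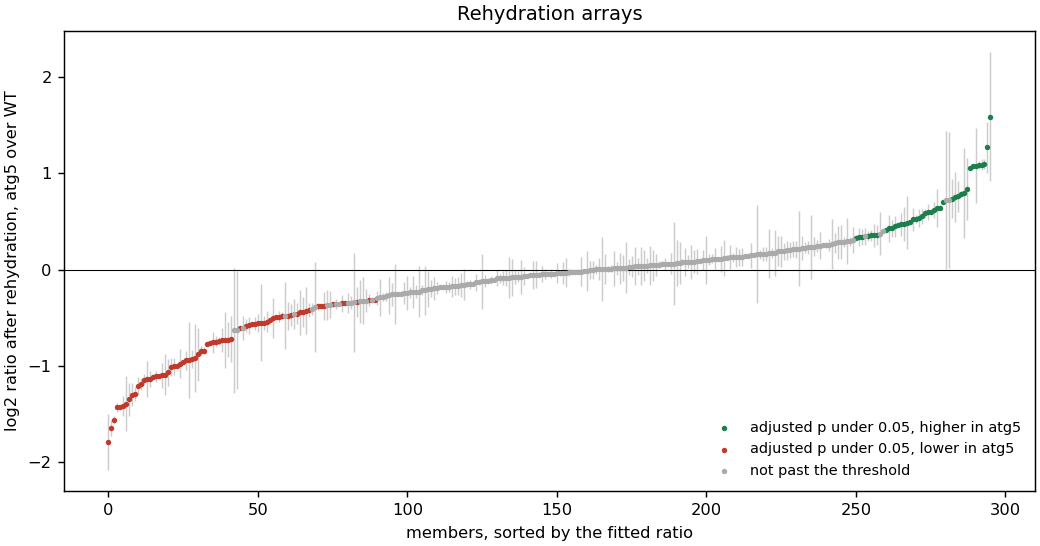
Fitted log2 ratio of atg5 over WT after rehydration (vertical axis) of the 296 members with a ratio, sorted from low to high, with grey bars joining the values of the 2 arrays. Green points mark the 41 members called higher, red points the 72 called lower and grey points those not past the adjusted p of 0.05, and the calls lie at both ends of a range from -1.79 to 1.59.

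The lowest of the members well above background on both Rehydration arrays was Pp1s32_311V6.1. It had log2 levels of 10.91 and 9.36 in atg5 and 12.98 and 10.87 in WT, a spread between the arrays as wide as that between lines, but with atg5 below WT on each array. Its log2 ratio was -1.79 ± 0.123 (SE, n = 2, limma adjusted p = 1.61e-05), with WT 3.46-fold above atg5. Pp1s54_173V6.1 had 10.68 and 10.65 in atg5 and 12.41 and 12.21 in WT, with a log2 ratio of -1.64 ± 0.0881 (SE, limma adjusted p = 4.57e-06). Here the lines did not overlap, and WT itself was 2.04 log2 units below its Hydration level. Pp1s22_378V6.1 had 9.23 and 9.61 in atg5 and 10.75 and 11.21 in WT, with a log2 ratio of -1.56 (limma adjusted p = 7.58e-06). Its WT stood 2.87 log2 units above Hydration, unlike that of Pp1s54_173V6.1. Pp1s21_68V6.2 and Pp1s287_56V6.2 each had a log2 ratio of -1.43 (limma adjusted p = 1.07e-05 and 1.13e-05). In the Pp1s287_56V6.2 probe the levels were 10.68 and 10.72 in atg5 and 12.12 and 12.13 in WT.

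Higher in atg5 after rehydration was, first, Pp1s149_4V6.1, which had 16.31 and 16.98 in atg5 and 15.39 and 14.72 in WT. Its log2 ratio was 1.59 ± 0.227 (SE, n = 2, limma adjusted p = 0.00096), with atg5 3.01-fold above WT. It was 0.92 on replicate 1 and 2.26 on replicate 2, so its size differed between arrays though its sign did not. Pp1s27_331V6.1 had 13.53 and 13.47 in atg5 and 12.53 and 11.93 in WT, with a log2 ratio of 1.27 ± 0.126 (SE, limma adjusted p = 9.92e-05). The other 3 of the 5 highest were probes of 1 locus, Pp1s339_37. Its probe Pp1s339_37V6.2 had 11.54 and 11.37 in atg5 and 10.50 and 10.22 in WT, with a log2 ratio of 1.10 (limma adjusted p = 4.16e-05). For Pp1s339_37V6.1 and Pp1s339_37V6.3 the log2 ratio was 1.09 and 1.09. All 5 member probes of that locus lay between -1.17 and -0.89 in mean r in Hydration and between 1.06 and 1.10 in the Rehydration fit, and they count as 1 locus rather than 5 members.

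By the sign of the fitted ratio on each array, 132 members were below 0 on both Hydration and both Rehydration arrays. Another 92 were below 0 on both Hydration arrays and above 0 on both Rehydration arrays. The Hydration signs largely follow from the choice, and the background was not counted over both Rehydration arrays. On Rehydration replicate 1, 166 of 296 members were below 0, against 5028 of 10956 background probes. On replicate 2 it was 172 of 295 members, against 5410 of 10964 background probes. Across members, r correlated between Hydration replicates 1 and 2 at 0.65 and between Rehydration replicates 1 and 2 at 0.67 (Pearson, n = 298). Between arrays of different treatment, slide and dye orientation it was 0.26 for Hydration 1 with Rehydration 2 and 0.20 for Hydration 2 with Rehydration 1. These coefficients are across probes, which are not independent replicates, and the range of Hydration values was cut by the choice.

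**Figure D5:**
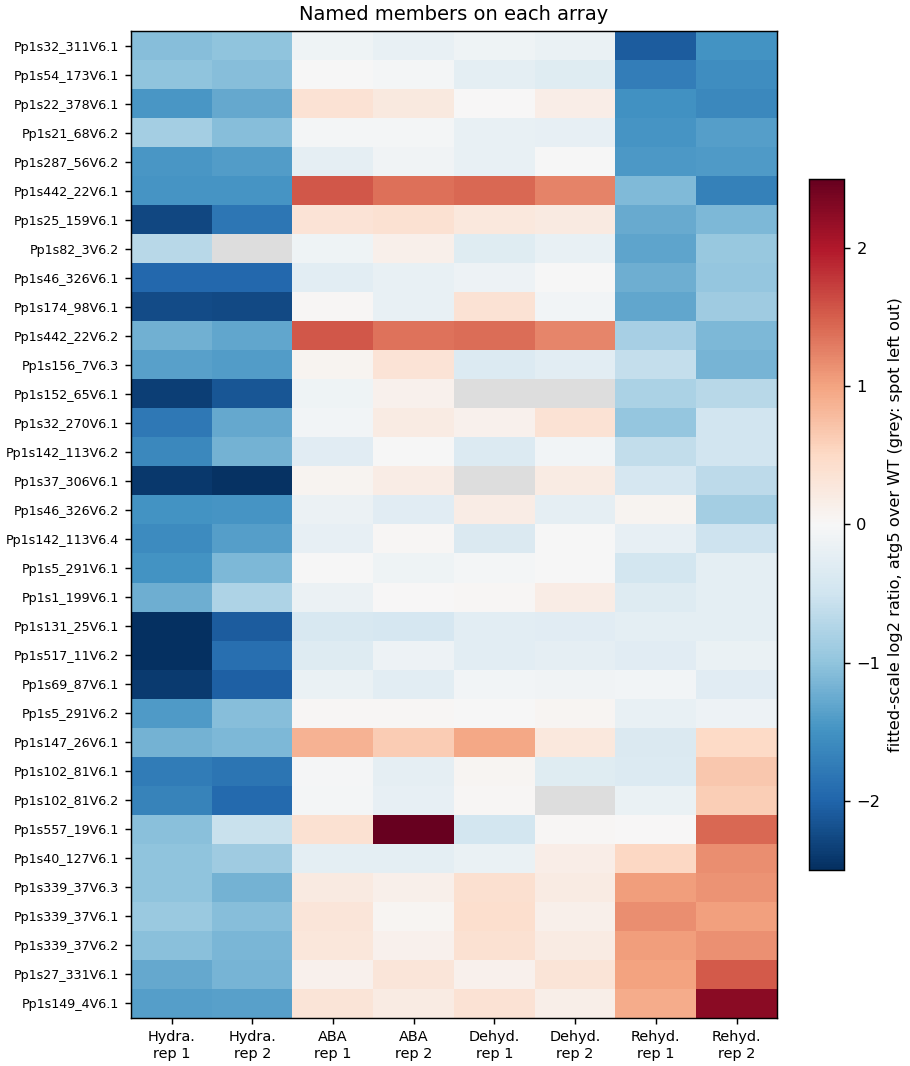
Log2 ratio of atg5 over WT after background correction and loess (colour, red above 0 and blue below) of named members (down the page, sorted by the Rehydration ratio) on the 8 arrays (across), with left-out spots in grey. All Hydration cells shown are blue, by choice, while the Rehydration cells run from the dark blue of Pp1s32_311V6.1 at the top to the dark red of Pp1s149_4V6.1 at the bottom.

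Calls after rehydration were also counted by what WT did on ABA, with no test of the difference. Of the 72 called lower, 30 had WT 2-fold or more higher on ABA than in Hydration, against 8 of the 41 called higher. Among background probes this held for 10.7% of those called lower and 12.5% of those called higher. In the class with WT higher on ABA, 30 of 76 members with a ratio were lower, against 19.3% of background probes of that class, and 8 were higher, against 22.8%. The median log2 ratio of this class was -0.25 over members and 0.069 over background probes. In the class with WT changed by under 2-fold, 39 of 198 members were lower, against 8.93% of background probes of that class, and 27 were higher, against 10%. Among members with WT lower on ABA, 3 of 22 were lower, against 27.9% of background probes of that class, and 6 were higher, against 12.6%. In Rehydration itself, WT was 2-fold or more above Hydration in 45 of the 72 called lower and in 5 of the 41 called higher. Of all background probes called, WT was so in 32.7% of those lower and 10.2% of those higher. The counts in Rehydration use the same WT channels as the calls. Over all members, 144 were 2-fold or more higher in Rehydration than in Hydration in atg5, against 7.22% of background probes, and 81 in WT, against 7.84%. Levels 2-fold or more lower were found for 11 members in atg5, with a background of 14.6%, and for 30 in WT, with a background of 14.3%. Without Rehydration replicate 2 the atg5 count was 19. With signals scaled to the 75th percentile the WT count was 69 (23.2%), against 31.1% of background probes.

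Of the 8 members with the lowest Hydration ratio, 5 were lower in atg5 after rehydration in the loess fit, where 10.9% of background probes were. Only Pp1s25_159V6.1 of these 5 also passed with the processed signals of the rule, and Pp1s32_270V6.1, Pp1s174_98V6.1 and Pp1s37_306V6.1 turned sign under median centring. Pp1s25_159V6.1 had 10.01 and 10.18 in atg5 and 11.26 and 11.31 in WT, a log2 ratio of -1.19 (limma adjusted p = 8.52e-05). Pp1s174_98V6.1 was at -1.09 (limma adjusted p = 0.000285) and Pp1s152_65V6.1 at -0.75 (limma adjusted p = 0.00107). Pp1s32_270V6.1 was at -0.72 (limma adjusted p = 0.00824) and Pp1s37_306V6.1 at -0.54 (limma adjusted p = 0.00479). In the remaining 3, Pp1s69_87V6.1, Pp1s131_25V6.1 and Pp1s517_11V6.2, the log2 ratio was -0.17, -0.25 and -0.23, and none passed the threshold in this fit. All 3 were above 0 under median centring, and Pp1s517_11V6.2 passed with the processed signals, at -1.03 (limma adjusted p = 0.0479).

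Other probes of the same loci were read on the same arrays. Of the 252 loci, 218 had 1 member probe, 26 had 2, 5 had 3, 2 had 4 and 1 had 5. Of the 8730 background loci, 7106 had 1 background probe, 1171 had 2, 326 had 3, 90 had 4 and 27 had 5. At least 2 probes met the detection rule in 68 of the member loci, and in 27 of those every such probe was a member. The other 41 loci held 65 detected probes that were not members, whose r in Hydration ran from -2.89 to 1.08 with a median of -0.76. Of these 65, 60 were below 0 in Hydration and 39 were above the limit of -0.8. Among all background probes, 5325 of 10983 were below 0 in Hydration. Probe sequences and the transcripts each probe reads were not used here.

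The 5 loci with the lowest ratios among those with several member probes were Pp1s142_113, Pp1s5_291, Pp1s442_22, Pp1s102_81 and Pp1s46_326. In Pp1s442_22 the order of the lines changed between Hydration and ABA and again between Dehydration and Rehydration. Its probe Pp1s442_22V6.1 had 6.91 and 6.86 in atg5 and 8.39 and 8.32 in WT in Hydration. On ABA it had 11.75 and 11.51 in atg5 and 10.20 and 10.13 in WT, and in Dehydration 11.46 and 11.17 in atg5 and 10.03 and 9.93 in WT. In Rehydration it had 9.45 and 9.13 in atg5 and 10.56 and 10.81 in WT. The line atg5 was thus below WT in Hydration and Rehydration and above it in the treatments between, with no overlap in any. The Rehydration log2 ratio was -1.39 (limma adjusted p = 6.35e-05) for Pp1s442_22V6.1 and -0.98 (limma adjusted p = 0.000157) for Pp1s442_22V6.2.

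The probes of the other 4 loci were nearer 0 on ABA and in Dehydration. Both probes of Pp1s102_81 read far higher on ABA than in Hydration in both lines. Pp1s102_81V6.1 had 15.40 and 15.47 in atg5 and 15.44 and 15.70 in WT on ABA, against 10.18 and 10.19 in atg5 and 11.92 and 12.02 in WT in Hydration. In Rehydration its log2 ratio was -0.35 on replicate 1 and 0.67 on replicate 2, so the arrays disagreed in sign. For Pp1s46_326V6.1 the Rehydration log2 ratio was -1.10 (limma adjusted p = 4.37e-05). Pp1s46_326V6.2 of the same locus was at -0.39 and did not pass (limma adjusted p = 0.211). Its arrays disagreed in sign, at 0.077 on replicate 1 and -0.85 on replicate 2. On Rehydration replicate 1 it was not well above background in either dye. Pp1s142_113V6.2 was at -0.55 (limma adjusted p = 0.0127) and Pp1s142_113V6.4 at -0.37 (limma adjusted p = 0.0712). Pp1s5_291V6.1 was at -0.35 (limma adjusted p = 0.0561) and Pp1s5_291V6.2 at -0.15 (limma adjusted p = 0.412). With the replicate number as a block, Pp1s142_113V6.4 passed at an adjusted p of 0.0365 and Pp1s5_291V6.1 at 0.0192 in limma.

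The member loci were spread over 169 scaffolds of the identifiers, with at most 6 loci on 1 scaffold. In 11 pairs the locus numbers were at most 5 apart, and in 1 pair they followed each other. Background loci were not counted in this way, so the counts do not show if member loci lie closer together than others. The successive pair, Pp1s55_65V6.1 and Pp1s55_66V6.2, had an r in Hydration of -1.25 and -1.01. After rehydration both were higher in atg5, at a log2 ratio of 0.64 (limma adjusted p = 0.000751) and 0.78 (limma adjusted p = 0.000221). Pp1s57_21V6.1 and Pp1s57_24V6.1, numbered 3 apart and named after their values were seen, were both above WT on ABA, with an r of 0.40 and 1.99. Pairs were not all alike. After rehydration Pp1s130_114V6.1 had a log2 ratio of 0.079, and its neighbour Pp1s130_116V6.1 one of -0.78.

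For members dim in 1 line after rehydration, the fold is the bright line's mean over the higher of 2 values. These are the dim line's own signal and the lowest signal well above background. In each member named here the dim line's own signal was used, so the fold is the fitted estimate and no lower bound. Pp1s115_135V6.1 was not well above background in atg5 on either array. It had 7.01 and 7.15 in atg5 and 7.53 and 7.39 in WT, and was 1.30-fold lower in atg5 (limma adjusted p = 0.0284). Pp1s51_212V6.1 was likewise dim in atg5, at an estimate of 1.24-fold below WT (limma adjusted p = 0.147, and 0.0358 with the replicate block). Pp1s65_284V6.1 was dim in WT, with atg5 at an estimate of 1.16-fold above it (limma adjusted p = 0.209).

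Calls after rehydration depended on the normalization. With median centring in place of loess no probe on the array passed, and 7 members had an unadjusted p under 0.05 in limma. The processed signals of the rule, centred on the median with no loess step added, gave 46 members higher (15.5%) and 67 lower (22.6%). Of all tested probes 10.8% were then higher and 9.46% lower. Leaving out Rehydration replicate 2 left 11 members higher and 48 lower, and leaving out replicate 1 left 32 higher and 53 lower. Single calls that ended without 1 of the arrays were those of Pp1s32_270V6.1 without replicate 1, Pp1s37_306V6.1 and Pp1s40_127V6.1 without replicate 2, and Pp1s142_113V6.2 and Pp1s115_135V6.1 without either. That of Pp1s115_135V6.1 also ended with no filter on dim probes. With the processed signals of the rule, Pp1s152_65V6.1, Pp1s32_270V6.1, Pp1s174_98V6.1 and Pp1s37_306V6.1 did not pass. That setting added calls for Pp1s517_11V6.2, Pp1s5_291V6.1 at -0.87 (limma adjusted p = 0.0173), Pp1s46_326V6.2 at -1.28 (0.0438), Pp1s51_212V6.1 at -1.07 (0.0248) and Pp1s65_284V6.1 at 1.23 (0.0145).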

How the data were processed

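Spot intensities were read from the deposited scanner files, which hold the authors' linear signals per dye. Per the file headers the software was Agilent Feature Extraction 9.5.3.1, and the submitters' processing notes name version 9.1. In replicate 1 of every treatment atg5 carried Cy5 and WT Cy3, and in replicate 2 the dyes were exchanged. The labels give 200 ng of RNA for each labelling. Each array has 39733 spots, 38316 of them gene spots of 38181 probes.

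Members were found from the processed signals, with r centred on the median of 5475 probes well above background in all 16 channels. For the test, median pixel signals were corrected against local background (normexp, offset 50), normalized within arrays (loess) and fitted with limma 3.58.1 in R 4.3.3, with 1 coefficient per treatment over all 8 arrays. Control and outlier-marked spots were left out, and 2 members then had no Rehydration ratio. The offset makes fitted ratios of dim probes smaller than r. The filter kept 19739 probes that exceeded background clearly on both arrays in 1 or more of the 8 groups of genotype and treatment. Levels were made with loess and Aquantile, outlier-marked spots included, and treatments were compared at 2-fold.

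The fit was tested on simulated data with 19739 probes for the Rehydration comparison. It called 81 of 100 probes changed by 1 log2 unit and 37 of 100 changed by 0.5, with 6 false calls. The simulated noise was independent between probes and arrays, with no dye or replicate effect. It therefore cannot show how reliable the calls on the real arrays are. Replicate numbers share slide and dye orientation, and their deviations correlated at 0.27 to 0.53 in all pairs of treatments, so a fit with the number as a block was an alternative. Other alternatives were the background correction, the centring, the filter, the outlier marks, the limits and each replicate left out.

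Members named were the 8 lowest in Hydration, the 5 highest and 5 lowest calls after rehydration, the 2 nearest each limit on either side, up to 5 loci with several member probes, the 3 highest WT levels in Hydration, the 3 largest WT rises and falls on ABA, and up to 3 seen in 1 line only. The members and lists were chosen with earlier results of these data known. The authors' deposited table of processed values was not used here.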

Additional observations from a re-analysis of the deposited data

Results flagged for a closer look

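Of the named members, 6 were below 0 in atg5 on both Hydration arrays and above 0 on both Rehydration arrays, and passed the limma threshold after rehydration. The members were Pp1s149_4V6.1 with a Rehydration log2 ratio of 1.59, Pp1s27_331V6.1 with 1.27, Pp1s339_37V6.2 with 1.10, Pp1s339_37V6.1 with 1.09, Pp1s339_37V6.3 with 1.09 and Pp1s40_127V6.1 with 0.839. The difference between the treatments was not tested, since the Hydration ratios chose the members. For Pp1s40_127V6.1 the ratio was 0.52 on replicate 1 and 1.16 on replicate 2, and its call ended without Rehydration replicate 2.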

How the results depend on the processing

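Of 422 recalculations of single named members in Rehydration, over 43 members, 355 kept their direction and side of the threshold, 32 lost the call and 18 gained it with their direction kept, and 17 turned sign. Under median centring 8 turned, of which 4 had been called (Pp1s32_270V6.1 at 0.16, Pp1s174_98V6.1 at 0.0064, Pp1s37_306V6.1 at 0.00050 and Pp1s142_113V6.2 at 0.016) and 4 had not (Pp1s69_87V6.1 at 0.43, Pp1s131_25V6.1 at 0.43, Pp1s517_11V6.2 at 0.63 and Pp1s5_291V6.2 at 0.084). Pp1s65_300V6.1 was at -0.060 with processed signals. Without 1 Rehydration replicate, uncalled members ran from -0.25 to 0.10 (Pp1s83_240V6.1), -0.037 to 0.12 (Pp1s142_79V6.1), -0.048 to 0.17 (Pp1s397_21V6.1), -0.16 to 0.23 (Pp1s65_300V6.1), -0.17 to 0.61 (Pp1s102_81V6.2), -0.35 to 0.67 (Pp1s102_81V6.1), -0.85 to 0.077 (Pp1s46_326V6.2) and -0.37 to 0.50 (Pp1s147_26V6.1). Median centring left 0 members higher and 0 lower in limma, with 7 at an unadjusted p under 0.05, and moved the median of background probes to -0.74 in Hydration, -0.27 in ABA, -0.24 in Dehydration and 0.17 in Rehydration. The members' median minus that of background probes was then -0.90 in Hydration, and the rule under it gave 1230 members. Of the 182 tested members with r of -1 or lower, 19 were higher (10.4%), and of the 151 above -0.1 in ABA and Dehydration 21 were higher (13.9%) and 34 lower (22.5%), where the shares of all 296 were 13.9% and 24.3%. Without 1 Rehydration replicate, 11 to 32 were higher and 48 to 53 lower. The Rehydration median of -0.040 became -0.15 with processed signals, 0.16 with median centring, -0.13 with probes detected on both Rehydration arrays, -0.066 to -0.057 without 1 replicate, -0.14 and -0.053 with the stricter limits, and -0.13 with members chosen on loess ratios. Those were 201 probes, 153 of them shared, which is 51.3% of the members and 76.1% of the 201. Median r in Hydration was -1.12 to -1.12 without 1 replicate, -0.83 with loess and -1.64 with median centring. In ABA it was -0.0096 to 0.011, 0.0072 and -0.31, and in Dehydration 0.0072 to 0.015, 0.022 and -0.26. Of level counts, with signals scaled to the 75th percentile, atg5 was 2-fold lower in 6 members on ABA and 7 in Dehydration, and WT in 19 in Dehydration and 69 in Rehydration. Without 1 replicate, the atg5 count was 3 to 5 in Dehydration (5 without Hydration 1 or Dehydration 2) and 10 to 19 in Rehydration (19 without Rehydration 2), and the WT count was 11 to 17 in Dehydration (17 without Dehydration 2). The replicate block gave 55 members higher and 91 lower, and among named members added calls for Pp1s142_113V6.4, Pp1s5_291V6.1, Pp1s1_199V6.1 (adjusted p = 0.0328 in limma) and Pp1s51_212V6.1 and ended none. The causes of these shifts were not tested.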
